A study of Mus musculus with 26 samples.

Results

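The effect of gemcitabine on a mouse model of Group3 medulloblastoma was read from 5 arrays, 3 of tumors given gemcitabine and 2 of untreated tumors, out of 26 arrays in the series. Members were taken by their labels alone, as the arrays of Group3 tumors with or without gemcitabine whose titles carry the letters mmm. The other arrays held neurospheres, untreated and secondary tumors titled dka, and mmm tumors given pemetrexed (2 arrays) or both drugs (3 arrays). All 5 tumors had the genotype Trp53-/-, Cdkn2c-/- Myc and the strain C57BL/6, so the untreated tumors carry the same lesions as the treated ones. Dose, time after treatment, age, the site of the tumor and the way Myc was introduced are not given in the sources used here. The labels do not say that the arrays came from separate animals, so every p-value measures only a spread between arrays. In limma that spread was estimated over all 26 arrays unless stated otherwise, not over these 5 tumors alone.

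Gemcitabine is a nucleoside analogue of deoxycytidine. It enters cells through nucleoside transporters, is phosphorylated first by deoxycytidine kinase, blocks ribonucleotide reductase as the diphosphate and halts DNA chains as the triphosphate. Stalled replication forks engage the ATR and CHK1 checkpoint and the Fanconi anemia and homologous recombination repair pathways. Group3 medulloblastoma is a tumor of the cerebellum with high MYC activity and a high proliferation rate, and a sample cut from the brain can also hold normal neurons and glia.

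Values are log2 intensities, so a difference of 1 is a doubling, and each gene was read by its brightest probe set. Of 17097 genes, 0 passed an adjusted p of 0.05 in limma for gemcitabine against untreated tumors (0%), and the lowest adjusted p was 0.181. Before adjustment, 1472 genes had p under 0.05 (8.61%), 872 higher (5.1%) and 600 lower (3.51%) in the gemcitabine tumors. In 3481 genes (20.4%) all 3 gemcitabine arrays lay above both untreated arrays, and in 1603 (9.38%) all 3 lay below both. The median difference over all genes was 0.05, with 9966 genes above 0. No gene named here for this comparison passed the threshold, and the values below are descriptions of where the arrays lay. The 37 gene lists of pathways and cell types, with 784 measured genes, held 0 genes past the threshold.

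The 3 gemcitabine tumors were not alike. Against the mean of both untreated tumors, 1008 genes were at least 2-fold lower in gemcitabine array 1 and 1481 in array 2, but 334 in array 3. At least 2-fold higher were 184, 343 and 565 genes in the same order. The SD over genes of the difference between arrays 1 and 2 was 0.40, close to the 0.36 between the untreated arrays. Array 3 differed from array 1 with an SD of 0.75 and from array 2 with an SD of 0.95. Without array 3, 324 genes passed the adjusted threshold in limma (1.9%), of which 278 were lower (1.63%) and 46 higher (0.269%). Array 3 is singled out here because its values differed, so fits without it describe arrays 1 and 2 and are no independent test.

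Markers of mature neurons and glia separated the arrays in the same way. The brain marker score is the mean log2 value over 55 measured markers of mature neurons, oligodendrocytes and astrocytes. It was 9.35 and 8.78 in the untreated tumors and 7.58, 6.35 and 9.54 in gemcitabine arrays 1, 2 and 3. Arrays 1 and 2 lay below both untreated tumors and array 3 above them, and array 3 had the highest score of the 10 mmm tumors. Group means were 7.82 ± 1.61 (SD, n = 3) with gemcitabine and 9.06 ± 0.40 (n = 2) without. The difference of -1.24 gave an exact two-sided permutation p of 0.5 over 10 splits, where 0.1 is the smallest p possible. The mmm neurospheres, grown in culture, scored from 5.35 to 6.41. Their 17 astrocyte genes averaged from 6.4 to 9.1, so the score is no pure measure of normal brain. In bulk tumors, fewer cells of a type and less RNA per cell cannot be told apart.

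Mature neurons had the widest spread of the marker lists. Their 23 genes averaged 9.52 and 9.51 in the untreated tumors and 7.71, 6.17 and 10.01 in the gemcitabine tumors. Array 1 lay below both untreated tumors in 20 of these genes, array 2 in 22 and array 3 in 2. The median difference was -1.71, and 2 of 23 genes had all gemcitabine arrays below both untreated arrays, near the 9.38% over all genes. Vsnl1, a neuronal calcium sensor, read 9.87 and 8.73 untreated and 6.65, 3.74 and 9.24 with gemcitabine (difference -2.75, SE 1.01, limma adjusted p = 0.452). Scn1a, a neuronal sodium channel, read 8.96 and 7.29 untreated and 4.59, 3.82 and 8.34 with gemcitabine (difference -2.54, SE 0.85, limma adjusted p = 0.433). With the spread taken from the 10 mmm tumors alone, the SE was larger, 1.53 for Vsnl1 and 1.27 for Scn1a (limma adjusted p = 0.527 and 0.492). In both genes array 3 lay between the untreated arrays. Without array 3 both passed the threshold, at differences of -4.10 and -3.92 (limma adjusted p = 0.0192 and 0.00147). Both genes are part of the brain marker score, by which array 3 stood apart, so this is no separate evidence.

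Glia and interneurons showed the same order of arrays. The 17 astrocyte genes averaged 9.86 and 9.39 untreated and 8.5, 7.18 and 10.03 with gemcitabine, with a median difference of -1.15. These genes were also read in culture, at a median of 8.01 in the dka Group3 neurospheres. The 15 oligodendrocyte genes averaged 8.48 and 6.98 untreated and 6.36, 5.67 and 8.26 with gemcitabine, a median of -1.01. The untreated tumors thus differed from each other in myelin markers, and array 3 lay between them. Gad1, which makes the inhibitory transmitter GABA, read 13.57 and 12.59 untreated and 9.68, 6.46 and 12.69 with gemcitabine (difference -3.47, SE 1.37, limma adjusted p = 0.506). Its second probe set, which was dimmer, gave -2.51. The SE of Gad1 was larger, 1.7, with the spread taken from the 10 mmm tumors alone. Gad1 was also well read in neurosphere culture, at a mean of 8.16 in the dka Group3 neurospheres, so it is no pure marker of normal brain here.

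Lists of other cell types differed less. The 24 microglia and macrophage genes averaged 7.23 and 7.41 untreated and 7.08, 6.6 and 7.52 with gemcitabine, a median difference of -0.28. The 20 endothelial genes had a median of -0.24, which became 0.05 without untreated array 2. Of these genes 5 were lower and 0 higher at an unadjusted p under 0.05 (3.51% of all genes were lower). Of the 20 genes, 7 had all gemcitabine arrays below both untreated arrays (9.38% of all genes). Slco1a4, a transporter of the blood-brain barrier, read 5.29 and 5.48 untreated and 4.0, 3.85 and 4.53 with gemcitabine. All 3 gemcitabine arrays lay below (difference -1.26, SE 0.34, limma adjusted p = 0.340), and without array 3 the gene passed the threshold (adjusted p = 0.0432). The other 4 lower genes were Ly6c1 at -1.09, Ramp2 at -0.89, Abcb1a at -0.75 and Sox17 at -0.66, and Ly6c1 in array 3 lay between the untreated tumors. The general endothelial genes Pecam1 and Kdr differed by 0.09 and 0.20. Lymphocyte and neutrophil lists averaged between 3.70 and 4.12 on the 5 arrays, below the array medians of 4.75 to 4.81. All 17 lymphocyte genes and 8 of 11 neutrophil genes were below those medians on all 5 arrays. The neutrophil gene S100a9 read 4.51 and 6.17 untreated and 4.53, 3.94 and 5.75 with gemcitabine, above the median in untreated array 2 and gemcitabine array 3. Ttr, the transport protein made by choroid plexus, read 5.13 and 8.18 untreated and 7.33, 12.22 and 9.27 with gemcitabine, with array 2 far above the others.

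**Figure D1:**
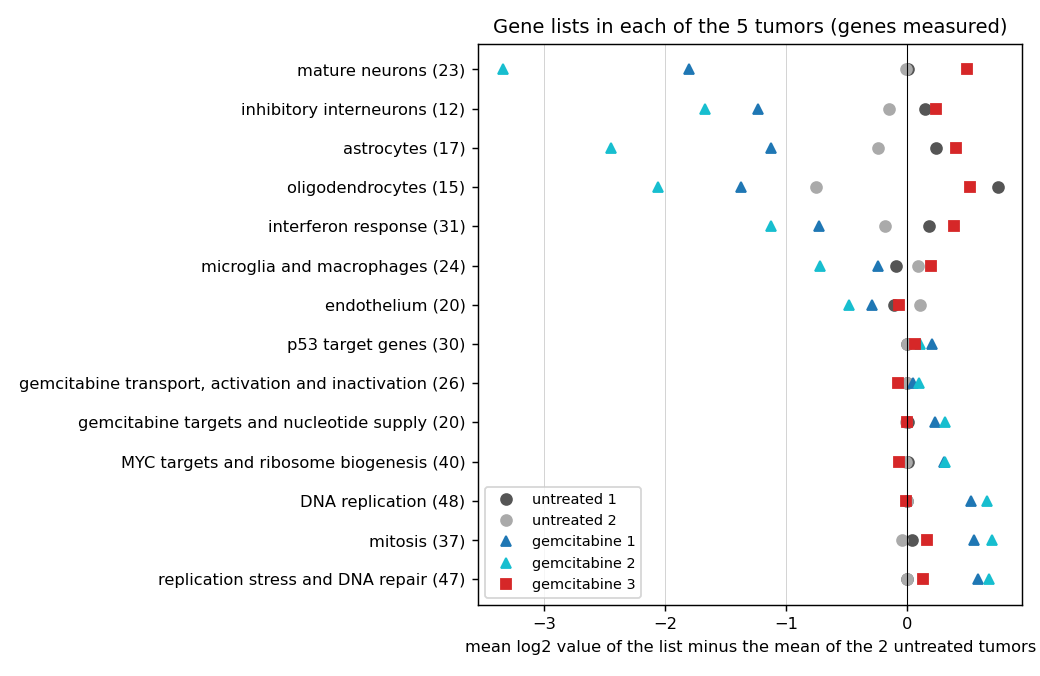
Mean log2 value of 14 gene lists in each of the 5 tumors, relative to the mean of both untreated tumors (circles, untreated; triangles, gemcitabine arrays 1 and 2; squares, gemcitabine array 3). Arrays 1 and 2 lie far to the left for neurons and glia and to the right for replication, mitosis and repair, while array 3 stays near the untreated tumors.

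Genes that carry gemcitabine into the cell, activate it and break it down differed little between the groups. Of 26 measured, 0 passed an unadjusted p of 0.05 in either direction, 4 had all gemcitabine arrays above both untreated arrays and 1 had all below. Over all genes the shares were 8.61%, 20.4% and 9.38%. Their median difference was 0.01, against 0.05 over all genes. The list averaged 7.95 and 7.95 untreated and 8.0, 8.05 and 7.88 with gemcitabine. Differences ran from -1.30 in Cmpk2 to 1.08 in Nt5e.

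Slc29a1, the main equilibrative nucleoside transporter, read 9.23 and 9.26 untreated and 9.35, 9.44 and 8.98 with gemcitabine (difference 0.01, SE 0.30). The concentrative transporters Slc28a2 and Slc28a3 lay between 2.86 and 3.69 on all 5 arrays, below the array medians. Dck, the deoxycytidine kinase that makes the first phosphate, read 8.73 and 8.52 untreated and 8.86, 8.41 and 7.27 with gemcitabine. Array 3 alone was low, and it was also below the other 5 treated mmm tumors, which read from 8.40 to 8.74. The group difference of -0.44 (SE 0.42, limma adjusted p = 0.831) became 0.02 without array 3. Dctd, which deaminates dCMP and the monophosphate of the drug, was also lowest in array 3. It read 9.64 and 9.61 untreated and 9.70, 9.75 and 8.12 with gemcitabine, while the tumors given pemetrexed or both drugs read from 9.14 to 9.61. Gemcitabine array 3 held the lowest value of the 10 tumors in 8 of the 26 genes of this list and in 3233 of all 17097 genes.

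The kinases further along were flat. Cmpk1, which adds the second phosphate, lay between 11.09 and 11.30 on all 5 arrays, and Nme1 and Nme2, which add the third, differed by 0.02 and -0.06. Cmpk2, a mitochondrial kinase that is also an interferon-induced gene, read 8.25 and 7.04 untreated and 6.03, 5.15 and 7.84 with gemcitabine (difference -1.30, SE 0.63, limma adjusted p = 0.582). It was low in the 2 treated tumors with a low brain marker score, and at equal score its difference was -0.15. Nt5e, the ectonucleotidase CD73, read 7.71 and 7.47 untreated and 8.83, 9.25 and 7.93 with gemcitabine. All 3 gemcitabine arrays lay above, but the difference of 1.08 had an SE of 0.83 (limma adjusted p = 0.771). Samhd1, which cleaves the active triphosphate, differed by 0.03 (SE 0.27). The exporters Abcc4, Abcc5 and Abcc10 differed by 0.08, -0.03 and 0.21. Tk1, the thymidine salvage kinase of S phase, read 6.22 and 6.72 untreated and 7.35, 7.60 and 7.18 with gemcitabine (difference 0.91, SE 0.44, limma adjusted p = 0.584).

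Targets of the drug and the nucleotide supply around them leaned slightly higher. Of 20 measured genes, 2 were higher and 0 lower at an unadjusted p under 0.05 (5.1% of all genes were higher). In 8 all gemcitabine arrays lay above and in 1 below (20.4% and 9.38% of all genes). The median difference was 0.17. Rrm1, the large subunit of ribonucleotide reductase, read 9.57 and 9.66 untreated and 10.14, 10.11 and 9.75 with gemcitabine (difference 0.39, SE 0.29, limma adjusted p = 0.762). Rrm2, its small subunit, read 10.15 and 10.07 untreated and 10.32, 10.38 and 10.02 with gemcitabine (difference 0.13, SE 0.39). For Rrm1 the groups did not overlap, whereas Rrm2 in array 3 lay below both untreated tumors. Rrm2b, the p53-induced small subunit, differed by 0.02 (SE 0.26).

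Tyms, thymidylate synthase, read 8.81 and 9.01 untreated and 9.49, 9.61 and 9.0 with gemcitabine (difference 0.45, SE 0.37, limma adjusted p = 0.790). Purine synthesis held both genes with an unadjusted p under 0.05. Gmps, GMP synthetase, read 8.20 and 8.13 untreated and 8.45, 8.81 and 8.67 with gemcitabine (difference 0.48, SE 0.20, limma adjusted p = 0.513). Pfas read 8.51 and 8.55 untreated and 9.16, 9.19 and 8.62 with gemcitabine (difference 0.46, SE 0.22, limma adjusted p = 0.574). In pyrimidine synthesis, Cad differed by 0.40 (SE 0.19), Dhodh by 0.32 (SE 0.30) and Umps by 0.17 (SE 0.41). Umps read 8.01 and 7.90 untreated and 8.49, 8.61 and 7.30 with gemcitabine, again with array 3 at the bottom.

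DNA replication genes were higher in gemcitabine arrays 1 and 2 and level in array 3. The 48 measured genes averaged 8.26 in each untreated tumor and 8.79, 8.93 and 8.25 with gemcitabine. Array 1 was above both untreated tumors in 46 genes, array 2 in 47 and array 3 in 22, while array 3 was below both in 21. At an unadjusted p under 0.05, 10 genes were higher and 0 lower (5.1% of all genes were higher). All gemcitabine arrays were above in 22 genes and below in 0 (20.4% and 9.38% of all genes). The median difference was 0.37 against 0.05 over all genes. The brain marker score ran the other way on the same arrays, and the values at equal score are given with the second fit.

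Prim1, the catalytic subunit of DNA primase, read 8.58 and 8.60 untreated and 9.58, 9.80 and 9.14 with gemcitabine. The groups did not overlap (difference 0.92, SE 0.28, limma adjusted p = 0.416). Pola2, the regulatory subunit of DNA polymerase alpha, read 6.62 and 6.51 untreated and 7.72, 7.74 and 6.95 with gemcitabine (difference 0.90, SE 0.31, limma adjusted p = 0.435). Array 3 lay above both untreated tumors, but nearer to them than to the other treated arrays.

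Mitosis genes had the highest median of the 37 lists, 0.56. Their 37 genes averaged 8.47 and 8.39 untreated and 8.99, 9.14 and 8.60 with gemcitabine. At an unadjusted p under 0.05, 16 were higher and 0 lower (5.1% of all genes were higher). In 20 all gemcitabine arrays lay above both untreated arrays (20.4% of all genes). Kif23, a kinesin needed for cytokinesis, read 4.11 and 4.19 untreated and 5.12, 5.44 and 4.7 with gemcitabine (difference 0.94, SE 0.34, limma adjusted p = 0.455). These values lie around the array medians, and its second probe set differed by 0.18. Hmmr, a spindle and hyaluronan receptor protein, read 8.53 and 8.33 untreated and 9.39, 9.72 and 8.79 with gemcitabine (difference 0.87, SE 0.34, limma adjusted p = 0.503). All 5 probe sets of Hmmr were higher with gemcitabine, by 0.73 to 1.16.

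Promoters of these genes are shown because most replication and mitosis genes were higher together in arrays 1 and 2. The window runs from 250 bases before to 50 bases after the start of the RefSeq gene on GRCm38.p6, and was searched on both strands. Mitotic genes are known for a CHR element, TTTGAA, and replication genes for E2F sites, searched as TTTGGCGC, TTTCCCGC, TTTGGCGG or TTTCGCGC. TTTGAA was present in 23 of 31 mitosis promoters (74.2%), 9 of 39 replication promoters (23.1%) and 5466 of all 27025 promoters (20.2%). An E2F-type motif was present in 18 of 39 replication promoters (46.2%), 1 of 31 mitosis promoters (3.23%) and 730 of all 27025 (2.7%). A match is a description of the sequence and does not show binding. The matched motif is in capitals, in Kif23 (chr9:61946750-61947049, minus strand) and Hmmr (chr11:40733388-40733687, minus strand) the CHR letters, and in Pola2 (chr19:5964157-5964456, minus strand) an E2F-type site, all written 5′ to 3′ along the gene.
Kif23: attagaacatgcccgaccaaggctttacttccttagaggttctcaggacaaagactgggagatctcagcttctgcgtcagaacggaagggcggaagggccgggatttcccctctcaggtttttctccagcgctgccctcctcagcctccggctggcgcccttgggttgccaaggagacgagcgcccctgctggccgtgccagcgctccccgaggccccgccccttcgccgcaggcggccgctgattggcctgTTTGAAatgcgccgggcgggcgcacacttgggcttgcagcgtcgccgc
Hmmr: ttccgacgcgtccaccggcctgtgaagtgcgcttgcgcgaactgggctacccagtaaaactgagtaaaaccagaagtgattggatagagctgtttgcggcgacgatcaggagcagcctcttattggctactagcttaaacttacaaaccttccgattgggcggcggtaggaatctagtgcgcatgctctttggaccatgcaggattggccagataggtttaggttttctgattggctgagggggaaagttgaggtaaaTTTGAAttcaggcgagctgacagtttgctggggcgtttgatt
Pola2: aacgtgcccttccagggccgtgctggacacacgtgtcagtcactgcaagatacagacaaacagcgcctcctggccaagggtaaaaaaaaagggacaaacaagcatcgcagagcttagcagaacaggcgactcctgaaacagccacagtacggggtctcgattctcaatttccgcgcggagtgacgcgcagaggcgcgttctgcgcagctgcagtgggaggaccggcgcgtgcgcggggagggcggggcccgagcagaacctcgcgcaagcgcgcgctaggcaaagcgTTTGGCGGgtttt

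Genes of replication stress and DNA repair, the pathways a stalled fork engages, had averages that ran like those of the replication genes, and as in that list 22 members were higher in all 3 tumors. The 47 genes averaged 7.11 and 7.10 untreated and 7.69, 7.79 and 7.24 with gemcitabine, with 12 higher and 0 lower at an unadjusted p under 0.05 and a median difference of 0.46. In 0 genes did all gemcitabine arrays lie below both untreated arrays. Over all genes, 5.1% were higher at that unadjusted p, 20.4% had all gemcitabine arrays above and 9.38% all below. Fancb, a subunit of the Fanconi anemia core complex, read 6.74 and 6.69 untreated and 7.89, 8.15 and 7.99 with gemcitabine (difference 1.30, SE 0.40, limma adjusted p = 0.422). Palb2, which brings BRCA2 to broken DNA, read 6.36 and 6.14 untreated and 7.16, 7.65 and 7.28 with gemcitabine (difference 1.11, SE 0.36, limma adjusted p = 0.432). In both genes array 3 lay with the other treated tumors rather than with the untreated ones. A second probe set of Fancb differed by 0.90.

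**Figure D2:**
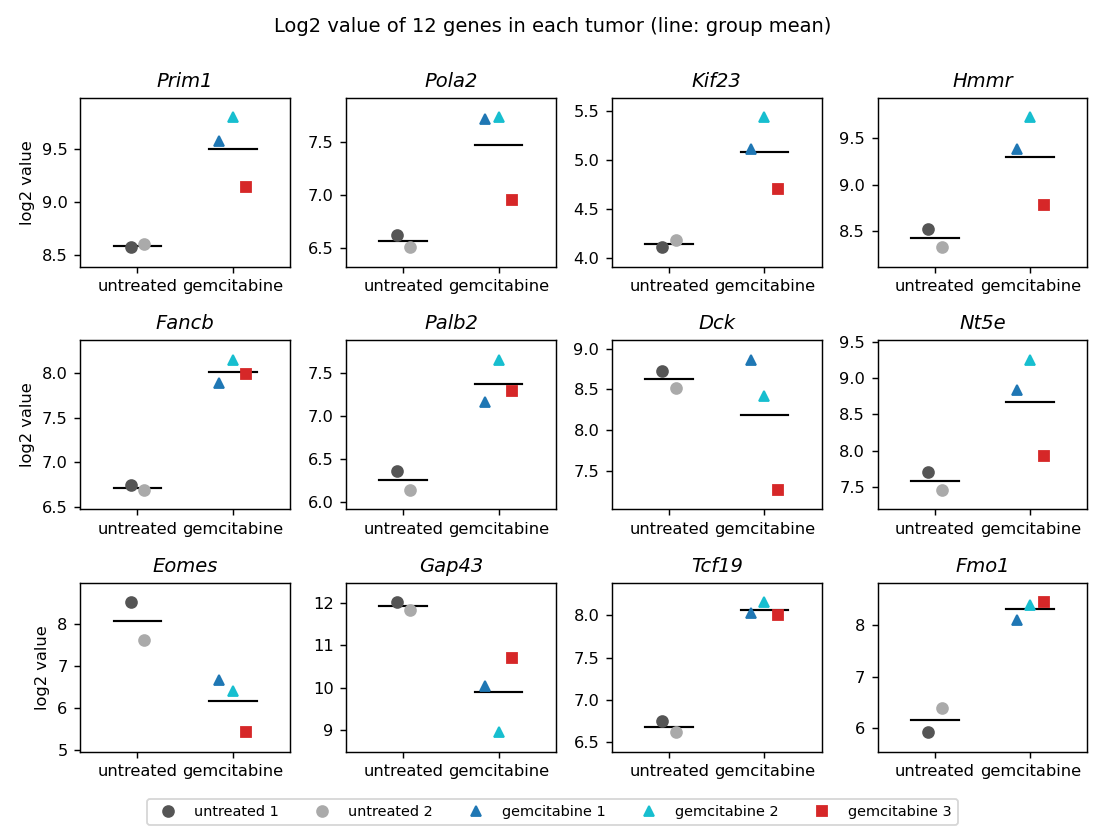
Log2 value of 12 genes in each tumor (points, arrays; lines, group means), each panel on its own axis that does not start at 0. Pola2, Hmmr and Nt5e have array 3 (square) nearer to the untreated tumors, Prim1 and Kif23 have it between the groups, Fancb, Palb2, Tcf19 and Fmo1 have all 3 gemcitabine arrays together, and Dck is low in array 3 alone.

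The tumors lack Trp53, and the p53 target list stayed close to the background. Of 30 genes, 2 were higher and 0 lower at an unadjusted p under 0.05 (5.1% of all genes were higher), with a median difference of 0.14. Eda2r, a p53-induced death receptor, read 4.61 and 4.33 untreated and 6.37, 6.29 and 4.83 with gemcitabine (difference 1.36, SE 0.71, limma adjusted p = 0.613). Among 25 apoptosis genes 1 had an unadjusted p under 0.05 (8.61% of all genes). This was Casp2, a caspase linked to genotoxic stress, which read 8.19 and 8.18 untreated and 8.71, 9.03 and 8.51 with gemcitabine (difference 0.56, SE 0.22, limma adjusted p = 0.503). The apoptosis list as a whole had a median difference of 0.10.

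Growth genes leaned higher in arrays 1 and 2. The 40 genes of MYC targets and ribosome biogenesis averaged 9.69 and 9.67 untreated and 9.99, 9.99 and 9.62 with gemcitabine. At an unadjusted p under 0.05, 3 were higher and 0 lower (5.1% of all genes were higher). Polr1a, the large subunit of RNA polymerase I, read 7.52 and 7.35 untreated and 8.45, 8.51 and 7.78 with gemcitabine (difference 0.81, SE 0.25, limma adjusted p = 0.429), and passed the threshold without array 3 (adjusted p = 0.0395). Myc itself read 8.53 and 8.71 untreated and 8.94, 8.84 and 7.79 with gemcitabine (difference -0.10, SE 0.55). Mycn lay between 15.12 and 15.24 on all 5 arrays. Cdkn2c, deleted in the genotype, lay between 4.05 and 4.27, below the array medians. These probe sets were not located relative to the altered sequences and do not serve as a check of genotype.

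Interferon-response genes were lower in arrays 1 and 2 and slightly higher in array 3. The 31 genes averaged 6.54 and 6.18 untreated and 5.63, 5.23 and 6.75 with gemcitabine, a median difference of -0.39. Arrays 1 and 2 each lay below both untreated tumors in 26 genes, and array 3 above both in 21. Cxcl10, an interferon-induced chemokine, read 8.65 and 6.96 untreated and 5.42, 4.82 and 7.75 with gemcitabine (difference -1.81, SE 0.84, limma adjusted p = 0.568). The 12 antigen-presentation genes averaged 6.86 and 6.81 untreated and 6.30, 6.07 and 7.38 with gemcitabine. On these 5 arrays both lists thus ran in the order of the brain marker score. Over the 10 mmm tumors antigen presentation did not, as combination array 1, with a score of 6.83, averaged 8.2.

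Hypoxia and glycolysis was a list in which all 3 gemcitabine arrays averaged above the untreated tumors. Its 22 genes averaged 8.89 and 8.91 untreated and 9.27, 9.32 and 9.38 with gemcitabine, a median difference of 0.45. At an unadjusted p under 0.05, 2 genes were higher and 0 lower (5.1% of all genes were higher). In 11 all gemcitabine arrays lay above (20.4% of all genes). Adm, the vasodilator adrenomedullin, read 6.63 and 6.73 untreated and 8.06, 7.61 and 8.55 with gemcitabine (difference 1.40, SE 1.18, limma adjusted p = 0.798). Egln3, an oxygen-sensing prolyl hydroxylase, read 4.51 and 5.42 untreated and 6.19, 6.75 and 6.24 with gemcitabine (difference 1.43, SE 1.18, limma adjusted p = 0.792). With the spread taken from the 10 mmm tumors alone, the SE was 0.35 for Adm and 0.98 for Egln3 (limma adjusted p = 0.308 and 0.587). Other members went the other way, with Pdk1 and Pfkp lower on all 3 arrays by 0.44 and 0.24.

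Tumor identity was read from a list of 23 Group 3 and photoreceptor genes. Prom1 and Npr3 were well above the array medians, at 9.20 to 9.80 and 6.89 to 9.11 with gemcitabine, whereas 14 of the 23 genes were below them on all 5 arrays. These 14 included the photoreceptor genes Crx and Nrl, at 3.30 to 4.23, and Rcvrn, Sag, Pde6b and Opn1sw. Otx2, a cerebellar tumor transcription factor, read 6.72 and 4.17 untreated and 3.94, 4.41 and 6.21 with gemcitabine, and only 1 tumor of each group was above its array median. Eomes, a transcription factor of unipolar brush cells, read 8.52 and 7.62 untreated and 6.67, 6.41 and 5.42 with gemcitabine. All 3 treated tumors were lower (difference -1.90, SE 0.65, limma adjusted p = 0.433), array 3 most, and its second probe set differed by -1.52. Gap43, a growth-cone protein of differentiating neurons, read 12.02 and 11.82 untreated and 10.03, 8.95 and 10.70 with gemcitabine (difference -2.02, SE 0.66, limma adjusted p = 0.432). Array 3, with the highest brain marker score, was lower than both untreated tumors in Eomes and Gap43. Tumors given pemetrexed or both drugs were also below both untreated tumors, at 6.23 to 7.43 in Eomes and 10.2 to 11.5 in Gap43. The cause was not tested.

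Because the brain marker score differed so widely, gemcitabine was also set against untreated tumors at equal score, in a fit over the 10 mmm tumors. In that fit 0 of 17042 genes passed the adjusted threshold in limma (0%), with a lowest adjusted p of 0.0735, and 1729 had an unadjusted p under 0.05 (10.1%). The score and treatment share part of their variation, since every treated tumor except gemcitabine array 3 scored below both untreated tumors. Per unit of score, 36 of 37 mitosis genes, 47 of 48 replication genes and 46 of 47 repair genes had a negative fitted change, with medians of -0.20, -0.19 and -0.20. At equal score the median difference of gemcitabine from untreated was 0.30 for mitosis, 0.11 for replication and 0.21 for repair, against 0.03 over all genes. Each was below its median without the score. Hypoxia and glycolysis went from a median of 0.45 to 0.28.

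The interferon list had a positive fitted change per unit of score in 29 of 31 genes, with a median of 0.40. At equal score its median difference was 0.04, near that of all genes. Inflammation and acute-phase genes had a median of -0.01 without the score and 0.47 with it, and immediate early genes 0.16 and 0.57. Fancb differed by 1.21 at equal score and Prim1 by 0.67, both with a limma adjusted p of 0.395. Eomes differed by -2.05 and Gap43 by -1.43 in that fit, also with an adjusted p of 0.395.

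**Figure D3:**
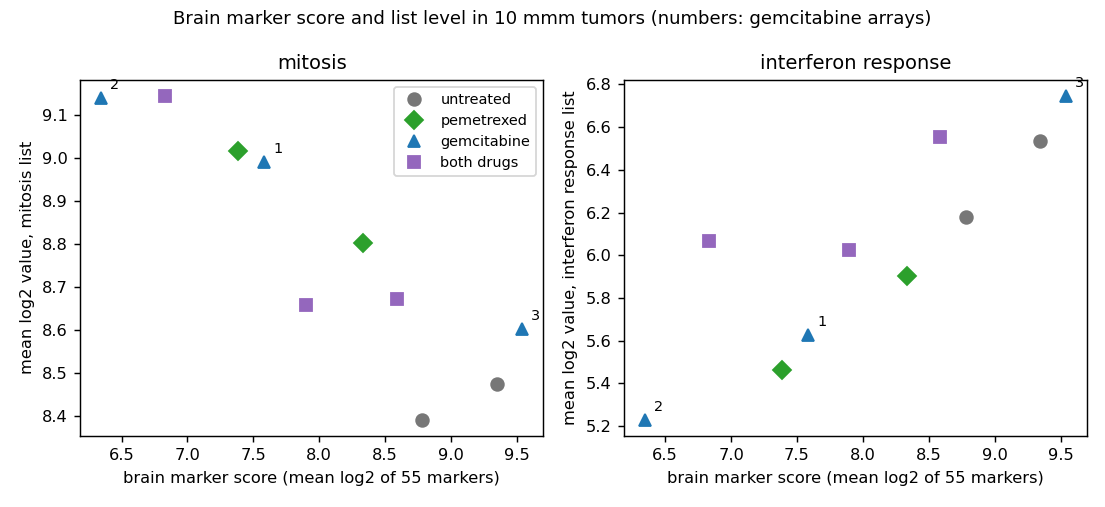
Mean log2 value of the mitosis list (left) and the interferon list (right) against the brain marker score in the 10 mmm tumors, 1 point per array, with gemcitabine arrays numbered. The 4 tumors with the lowest scores have the 4 highest mitosis values, and gemcitabine array 3 has the highest score and the highest interferon value.

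The 324 genes that passed without array 3 were compared with their level in culture, where normal brain is absent. Of the 278 lower genes, 175 had a mean below 5 in the dka Group3 neurospheres, around the array medians, 48 were between 5 and 7, 31 between 7 and 9 and 24 above 9. The 46 higher genes were split 19, 10, 14 and 3 over the same classes, and all genes 7520, 2550, 4104 and 2923. Lower genes with large differences, picked after their values were seen, included the neuronal genes Stmn2 at -4.32 and Gad1 at -5.01. Stmn2 read 3.24 in the dka Group3 neurospheres and 10.71 in the untreated dka tumors. Gad1 read 8.16 in those neurospheres, so it is no example of a gene that is dim in culture. The 8 gene lists with a member past the threshold in this setting were led by mature neurons with 5 lower genes of 23. Inhibitory interneurons had 4 of 12, and 1.63% of all genes were lower. Replication, mitosis and repair had 0. As only 0.269% of all genes were higher, that 0 is near the background and no result about those lists.

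**Figure D4:**
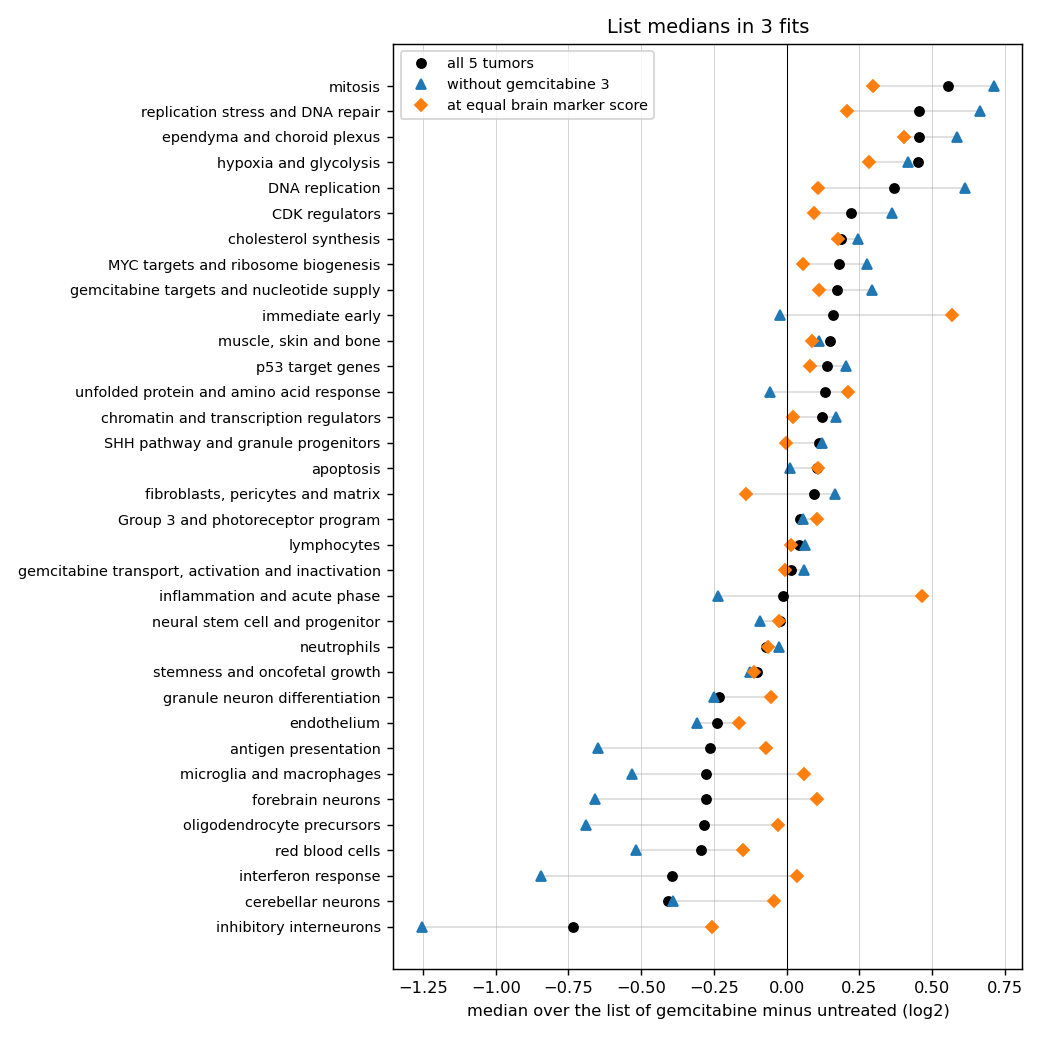
Median difference of 34 gene lists between gemcitabine and untreated tumors (log2) with all 5 tumors (circles), without gemcitabine array 3 (triangles) and at equal brain marker score (diamonds). Mitosis stays above 0 in all 3 settings at 0.56, 0.71 and 0.30, whereas the interferon list moves from -0.39 to -0.84 and 0.04.

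Tcf19 and Fmo1 were the genes called in the fit over the 10 mmm tumors alone, and were picked after their values were seen. Tcf19, a chromatin protein of the G1/S transition, read 6.75 and 6.62 untreated and 8.03, 8.16 and 8.01 with gemcitabine. Fmo1, a flavin monooxygenase, read 5.92 and 6.39 untreated and 8.10, 8.39 and 8.45 with gemcitabine. In both genes the 3 treated tumors lay close together and well above both untreated ones. The differences were 1.38 (SE 0.42) and 2.16 (SE 0.55), with limma adjusted p of 0.422 and 0.285 over all arrays. With the spread taken from the 10 mmm tumors alone, both passed at an adjusted p of 0.0327 (0.0117% of genes). At equal brain marker score they were 1.37 and 2.10, with adjusted p of 0.0735 and 0.0866. A dimmer second probe set of Tcf19 went the other way, at -0.29, whereas Fmo1 had 1 probe set.

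Comparisons of the other drugs with untreated tumors share the same 2 untreated arrays, so the values are only set side by side. Tcf19 read 7.82 and 7.75 with pemetrexed and 7.90, 8.05 and 8.12 with both drugs. Fmo1 read 8.48 and 8.09 with pemetrexed and 8.20, 7.96 and 8.27 with both. Differences from untreated were 1.10 and 1.34 for Tcf19 and 2.13 and 1.99 for Fmo1. The mitosis list had a median difference from untreated of 0.56 with gemcitabine, 0.50 with pemetrexed and 0.40 with both. The replication list had 0.37, 0.42 and 0.45 in the same order, and the repair list 0.46, 0.45 and 0.48. Fancb read 7.95 and 7.58 with pemetrexed and 7.19, 7.17 and 6.53 with both drugs. The brain marker score was 7.38 and 8.33 with pemetrexed and 6.83, 8.59 and 7.90 with both drugs, all below the higher untreated tumor.

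The difference in the direct test between the drugs does not use the untreated arrays, though its spread was estimated over all 26 arrays. Pemetrexed is a folate analogue that inhibits thymidylate synthase and purine enzymes, a different structural class from gemcitabine, and no dose or time is given for either, so the doses cannot be matched. In limma 0 of 17097 genes differed between gemcitabine and pemetrexed (0%), with 392 at an unadjusted p under 0.05 (2.29%). Against the combination 0 differed (0%), with 898 at an unadjusted p under 0.05 (5.25%). For Rrm1 the gemcitabine minus pemetrexed difference was -0.03, with a 95% interval from -0.64 to 0.58. For Tyms, a target of pemetrexed, it was -0.27, with an interval from -1.05 to 0.51. For Dck it was -0.39, from -1.26 to 0.48. These intervals include 0 and are wide, so the data do not show that the drugs act alike on these genes.

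Plxdc1 and Atoh7, picked after their values were seen, shared the lowest adjusted p of the test against pemetrexed with Tac2 and Ifi44l. Plxdc1, a tumor endothelial marker, read 6.89, 7.33 and 5.30 with gemcitabine and 4.04 and 4.42 with pemetrexed, a difference of 2.28 with a 95% interval from 1.49 to 3.06 (limma adjusted p = 0.0629). It read 4.46 and 4.76 untreated and 4.15, 4.49 and 5.06 with both drugs. The 3 gemcitabine tumors were thus the highest of the 10, with array 3 close to the highest of the others. Atoh7, a transcription factor of retinal neurogenesis, read 5.57, 5.45 and 5.56 with gemcitabine and 7.35 and 8.01 with pemetrexed (difference -2.15, interval -2.91 to -1.40, limma adjusted p = 0.0629). It read 7.69 and 6.47 untreated and 6.69, 6.56 and 7.88 with both drugs, and the 3 gemcitabine tumors were the lowest of the 10. Mbnl3, a splicing regulator also picked after its values were seen, read 7.33, 7.13 and 7.29 with gemcitabine and 7.22 and 6.79 with pemetrexed. It read 5.63 and 5.49 untreated and 5.32, 5.96 and 5.16 with both drugs, and gemcitabine against the combination differed by 1.77 (interval 0.11 to 3.43, limma adjusted p = 0.926).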

How the data were processed

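The deposited values were used as they stood: log2 intensities of mouse Affymetrix arrays, which per the submitters' processing notes came from RMA (version not given) and Partek 6.6. The labels name Trizol extraction and NuGEN amplification and labelling. Values of mmm tumors ran from -0.41 to 15.96 and those of dka arrays from 2.56 to 13.86. Levels were therefore not compared between the codes. Levels in dka neurospheres served to class and describe genes by their level in culture, and a dka tumor level is given for Stmn2. Of 45141 probe sets, 28898 had 1 gene symbol, and the brightest on average was kept for each of 17097 genes.

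In limma 3.58.1 (R 4.3.3) a mean for each of 9 groups of group label and title code was fitted to the 26 arrays, followed by empirical Bayes and Benjamini-Hochberg adjustment over all genes at 0.05. A second fit over the 10 mmm tumors had the brain marker score as covariate and left out its 55 genes. SE is the moderated standard error and intervals are unadjusted. The fit was tested on simulated data. Lists were described by counts and medians, without set tests.

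Members and lists were chosen with earlier results of these data known. The naming rule took, because no gene passed, the 2 largest differences of each list, the members of both gemcitabine lists, and Myc, Mycn and Cdkn2c; from these the text names a selection, and genes named to describe a list or chosen after their values were seen are additional. Promoters came from a RefSeq table on GRCm38.p6. Not analysed here: Trp53, Ccnb1, Cda, Atic. Alternatives were other array sets, array weights, quantile normalization, other probe set rules, a filter at a mean of 5, other covariates and each array left out. Figures used Python 3.11.15 and matplotlib 3.10.9.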

Additional observations from a re-analysis of the deposited data

How the results depend on the processing

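The count of 0 genes for gemcitabine against untreated tumors became 2 with only the 10 mmm tumors (Fmo1 and Tcf19) and 1 with the brightest probe set over the 5 arrays (Foxq1). Array weights were 5.07, 0.916 and 0.276 for gemcitabine arrays 1, 2 and 3, so the treated mean rested mostly on array 1. With them the count became 3922, of which 2128 were higher and 1794 lower. With 1 array left out at a time it ran from 0 to 324: 324 without gemcitabine array 3, 7 and 6 without untreated arrays 1 and 2, 2 without gemcitabine array 1 (Crb3 and Oprm1). Gemcitabine against pemetrexed gave 15 with array weights and 0 to 6 with 1 array left out (6 without gemcitabine array 3, 3 without pemetrexed array 1). Gemcitabine against the combination gave 246 with array weights, 1 without mmm neurosphere array 4 (Pla2g4e), and 0 to 32 with 1 array left out (32 without gemcitabine array 3, 15 without combination array 2). At equal brain marker score the count was 2 with no covariate and 0 to 4 with 1 array left out (4 without untreated array 1, 1 without untreated array 2). The gene lists with a member past the threshold were 35 with array weights and 0 to 8 with 1 array left out (8 without gemcitabine array 3, 1 without untreated array 2). The cause of these changes was not tested. The brain marker score difference ran from -0.50 to -2.10 with 1 array left out. A set of 34 genes was followed through the settings, and many genes named here, among them Myc and Slc29a1, were not in it. Of the 34 followed, 32 kept their direction in every setting run, and Dck and Luc7l did not. Of 37 lists, 26 kept the sign of their median. The other 11, 10 of them with 1 array left out, were gemcitabine transport, endothelium, lymphocytes, inflammation, neural stem cells, neutrophils (0.02 without untreated array 1), forebrain neurons (0.12 without untreated array 2), fibroblasts (-0.22 without untreated array 1, -0.14 and -0.02 without gemcitabine arrays 1 and 2), the unfolded protein response and immediate early genes (-0.06 and -0.02 without gemcitabine array 3) and apoptosis (-0.04 over genes with a mean above 5). No paired analysis was possible because the replicate numbers follow only the order of deposit.

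With 2 untreated arrays and 3 treated arrays, the number of arrays limits the precision, and genes near or below an array's median give no reliable fold.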

Other observations

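Some of the smallest unadjusted p values belonged to genes outside the lists, picked here after their values were seen; none passed the adjusted threshold in limma. Luc7l, a splicing factor gene, read 8.98 and 9.01 untreated and 9.90, 10.11 and 9.90 with gemcitabine, but its probe set that was brightest over the 5 arrays differed by -0.28. Ltbr, the lymphotoxin beta receptor, read 5.55 and 5.93 untreated and 7.16, 7.42 and 6.87 with gemcitabine (difference 1.41, SE 0.29, limma adjusted p = 0.204). Casq2, a calcium-storage protein of muscle, read 3.9 and 4.18 untreated and 5.91, 6.39 and 8.24 with gemcitabine (difference 2.80, SE 0.61, limma adjusted p = 0.213). It was highest in array 3, and the muscle, skin and bone list differed by a median of 0.15. Among lower genes, Car10, a carbonic anhydrase relative of neurons, read 6.69 and 5.74 untreated and 3.36, 3.53 and 4.46 with gemcitabine (difference -2.43, SE 0.45, limma adjusted p = 0.181).

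Among the lists not described so far, ependyma and choroid plexus had a median difference of 0.46 and CDK regulators 0.22, against 0.05 over all genes. Below 0 were inhibitory interneurons (-0.73), cerebellar neurons (-0.41), red blood cells (-0.30), oligodendrocyte precursors (-0.28), forebrain neurons (-0.28) and granule neuron differentiation (-0.23). Cholesterol synthesis had a median difference of 0.19, the unfolded protein response 0.13, chromatin regulators 0.12, the SHH pathway 0.11, fibroblasts and matrix 0.09, neural stem cell genes -0.02 and stemness genes -0.10. Globin genes were high on all 5 arrays: Hbb-b2 read 12.37 and 12.68 untreated and 10.91, 11.61 and 12.59 with gemcitabine.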
